A study of Mus musculus with 4 samples.

Results

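The 32 genes described here encode the building blocks of the basement membrane and a receptor that anchors cells to it, and they were picked by gene name from the 45706 genes in the count table. They comprised 10 laminin chains, the 6 collagen IV chains, 4 linkers (*Nid1*, *Nid2*, *Hspg2* and *Agrn*) and 12 further members. RNA was sequenced from left lung lobes taken at embryonic day 17 (E17) from C57BL/6 mice, 2 of them wild type and 2 homozygous for the *Myh10* allele L458R (Myh10L458R/L458R, called mutant below). The allele came from a chemical mutagenesis screen, is present in every cell of the animal, and replaces a leucine with an arginine in the motor domain of nonmuscle myosin heavy chain II-B. No lung was treated, and neither the litter nor the sex of the embryos was given.

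A basement membrane is a thin sheet of matrix that lies under epithelia and endothelia and around muscle cells. Laminin trimers of an alpha, a beta and a gamma chain form a network on the cell surface, collagen IV trimers form another that is chemically crosslinked, and nidogens and the heparan sulfate proteoglycans perlecan and agrin tie the networks together. In the lung, the basement membranes of alveolar epithelium and capillary endothelium fuse to form part of the barrier across which gas is exchanged.

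The 3 members that fell, *Lamb3*, *Tinagl1* and *Dag1*, are presented first with the DNA just upstream of a transcription start, because these were the only members for which the test between genotypes was passed. Each sequence runs 5′ to 3′ along the strand of the gene, was taken from RefSeq on GRCm38.p6, and carries matches to searched motifs in capitals. The searched motifs were the GC box GGGCGG, the CCAAT box, the TATA box TATAAA, the AP-1 motif TGANTCA and the TEAD motif GGAATG, on both strands.

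The window of *Lamb3*, chr1:193301744-193301993 on the plus strand, held no match, and its last base belongs to an annotated exon of the gene.
Lamb3: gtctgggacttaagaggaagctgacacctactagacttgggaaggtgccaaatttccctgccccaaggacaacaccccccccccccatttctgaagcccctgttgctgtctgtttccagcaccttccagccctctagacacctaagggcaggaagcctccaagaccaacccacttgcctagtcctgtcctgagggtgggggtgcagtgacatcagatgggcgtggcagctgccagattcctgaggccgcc
The window of *Tinagl1*, chr4:130175123-130175372 on the minus strand, held an AP-1 match at bases 77 to 83 and a TEAD match on the opposite strand at bases 102 to 107.
Tinagl1: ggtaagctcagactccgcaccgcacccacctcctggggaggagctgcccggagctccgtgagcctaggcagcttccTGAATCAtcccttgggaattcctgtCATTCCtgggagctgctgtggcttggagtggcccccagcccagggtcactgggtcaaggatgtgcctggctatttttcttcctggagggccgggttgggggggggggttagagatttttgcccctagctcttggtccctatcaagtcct
The window of *Dag1*, chr9:108263959-108264208 on the minus strand, held GC boxes at bases 164 to 169, 197 to 202 and 240 to 245 and a CCAAT box at bases 215 to 219.
Dag1: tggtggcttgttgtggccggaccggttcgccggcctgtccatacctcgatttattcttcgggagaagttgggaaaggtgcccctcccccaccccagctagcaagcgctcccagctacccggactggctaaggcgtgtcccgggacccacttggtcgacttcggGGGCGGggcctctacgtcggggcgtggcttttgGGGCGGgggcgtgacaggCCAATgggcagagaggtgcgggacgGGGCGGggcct

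None of these matches overlapped another. RefSeq gives each of the 3 genes a further start whose upstream window, not shown, overlaps annotated exons of the gene. That of *Lamb3* held a TEAD match at bases 84 to 89, that of *Tinagl1* held 4 GC boxes, and that of *Dag1*, which overlaps the window shown, held the same 3 GC boxes and 1 more CCAAT box. Over both windows, *Lamb3* and *Tinagl1* thus had the TEAD motif in common, and *Tinagl1* and *Dag1* the GC box. Of 32851 upstream windows of this length in the RefSeq table, 32.7% held a GC box, 33.8% a CCAAT box, 12.4% a TATA box, 6.75% an AP-1 motif and 12.6% a TEAD motif. A window was found for 22 of the 32 members, 30 windows in all. Of these windows 14 held a GC box, 11 a CCAAT box, 5 a TEAD motif, 3 an AP-1 motif and 0 a TATA box. Counted by member, 12 held a GC box in at least 1 window, 9 a CCAAT box, 5 a TEAD motif and 2 an AP-1 motif. Counts by member are not comparable with the shares per window. Letters in a window describe the sequence and do not show that a factor binds there.

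Between 19116971 and 32055306 reads were counted on genes in each lung. *Myh10* itself was counted at 505 and 504 CPM (reads on a gene after TMM scaling of all libraries to one size) in wild-type lungs and at 539 and 513 CPM in mutant lungs. The allele changes a single base, so this count does not check the labels. *Xist*, the RNA of the inactive X chromosome, was at 3916 CPM in wild-type lung 1 and 4457 CPM in mutant lung 2 against 1.84 and 4.10 CPM in the remaining lungs, so each genotype had 1 lung of either kind. Transcripts of surfactant and other alveolar type 2 markers, which define lung epithelium, summed to between 6026 and 9010 CPM in every lung. In whole lobes, fewer cells of a type and less RNA per cell cannot be told apart.

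All 32 members had enough counts to be tested, with between 192 and 161350 reads over the 4 lungs. In edgeR's quasi-likelihood test, adjusted by Benjamini-Hochberg over 18763 genes, 3 members fell in mutant lungs and 0 rose, while 29 did not pass the adjusted p threshold of 0.05. Over all genes tested 1.64% were called, 1.34% lower and 0.298% higher. At an unadjusted p under 0.05, 11 members were lower and 1 was higher, where 9.02% of all genes were lower and 7.52% higher. For 22 members both mutant lungs lay below both wild-type lungs, a pattern found in 24.3% of all genes, and for 1 member both lay above, against 23.9% of all genes. The genotypes overlapped for the other 9. Exons of 11 members overlap those of an antisense gene, and since the use of strand in counting is not given in the sources used here, the counts of these members are uncertain. The overlap was 631 bp for *Lama2*, 197 bp for *Lama3*, 159 bp for *Fras1*, 143 bp for *Nid1*, 65 bp for *Col4a2*, 22 bp for *Col4a1* and 14 bp for *Col15a1*, and it is given with the values of *Col4a3*, *Nid2*, *Lamc3* and *Egflam*.

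Of the members, 27 had a log2 fold change (mutant over wild type) below 0, against 49.5% of all genes. Their median log2 fold change was -0.10, and -0.09 without the 3 members that fell, beside a median of 0.002 over all genes tested. The members were chosen with results of these data known, so these shares were set side by side and not tested.

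**Figure D1:**
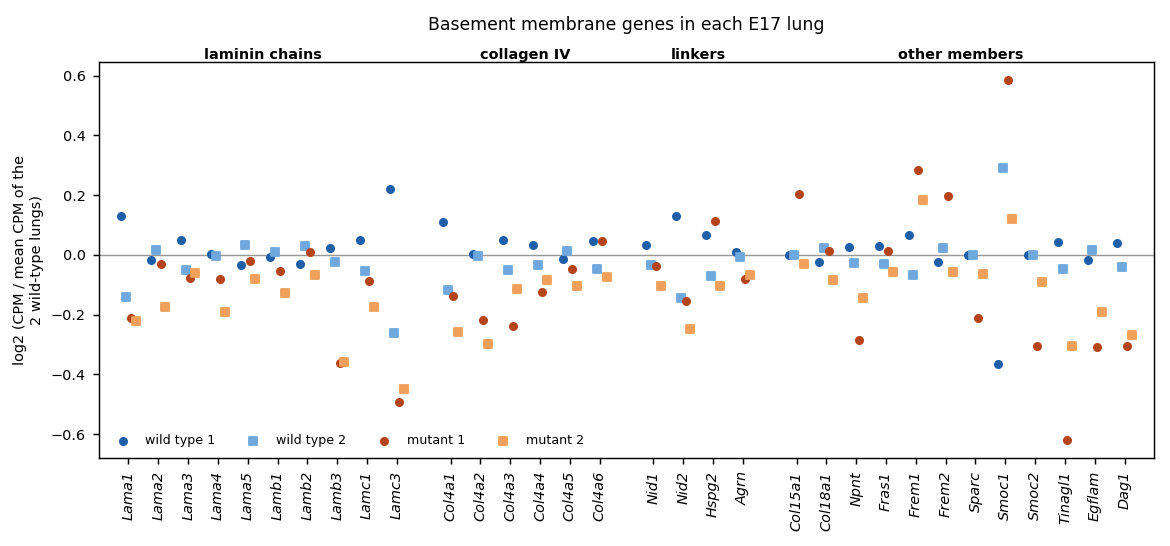
CPM of each of the 32 members in each of the 4 lungs, as log2 of the ratio to the mean of the 2 wild-type lungs (y axis), with genes grouped by role (x axis). Most mutant points lie below 0, both mutant points of *Frem1* lie above both wild-type points, and the widest spread between wild-type lungs is that of *Smoc1*, which had 29 to 68 counts.

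The laminin chains are given first. Of the 10 chains, *Lamb3* fell, 9 did not pass, and all 10 had a log2 fold change below 0, with a median of -0.12 and a range from -0.48 to -0.03. In 8 of them both mutant lungs lay below both wild-type lungs, a pattern found in 24.3% of all genes. Over all genes, 49.5% had a log2 fold change below 0. Summed over the chains, the level was 2987 and 2964 CPM in wild-type lungs and 2847 and 2723 CPM in mutant lungs, so the genotypes did not overlap.

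*Lamb3* (ENSMUSG00000026639, GRCm38 chromosome 1, 193207699 to 193343878) encodes a beta chain of the epithelial laminin that anchors cells through hemidesmosomes. It was counted at 123 and 119 CPM in wild-type lungs and at 94.0 and 94.2 CPM in mutant lungs. The lungs of each genotype lay close together and both mutant lungs were below both wild-type lungs. The log2 fold change was -0.36 (standard error 0.05, 95% interval -0.48 to -0.24, edgeR adjusted p = 0.00981), so *Lamb3* fell by 22.1%. Without wild-type lung 1 the adjusted p was 0.061, above the threshold, and over the other alternatives it lay between 7.00e-06 and 0.0116.

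The other 2 beta chains did not follow at that size. *Lamb1*, which is widespread in the embryo, had 390 and 394 CPM in wild-type and 378 and 359 CPM in mutant lungs (log2 fold change -0.09, adjusted p = 0.413). *Lamb2*, a chain of mature and neuromuscular basement membranes, had 263 and 274 CPM in wild-type and 271 and 256 CPM in mutant lungs (log2 fold change -0.03, adjusted p = 0.829), a difference whose sign turned with a correction for GC content and length. The wild-type and mutant values of *Lamb2* overlapped, and those of *Lamb1* did not.

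Levels were divided by kilobases of exon to set genes side by side, with all annotated exons of a gene pooled. On that scale *Lamb3* made up 18.4% and 17.5% of the summed level of the beta chains in wild-type lungs and 14.7% and 15.4% in mutant lungs. The ratio of *Lamb3* to *Lama3*, the alpha chain it assembles with, was 0.638 and 0.663 in wild-type lungs and 0.533 and 0.529 in mutant lungs. Neither measure overlapped between genotypes. The exact two-sided permutation p was 0.333 for each, the smallest that 2 against 2 lungs allow, and 0.519 after Benjamini-Hochberg adjustment over the 42 ratios computed.

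*Lama3* itself was nearly level. It had 313 and 291 CPM in wild-type lungs and 286 and 289 CPM in mutant lungs, with a log2 fold change of -0.07 (95% interval -0.18 to 0.04, adjusted p = 0.533). Both mutant lungs lay just below the lower wild-type lung. *Lama4*, the alpha chain of vascular and mesenchymal laminins, had 285 and 284 CPM in wild-type lungs and 269 and 250 CPM in mutant lungs (log2 fold change -0.13, adjusted p = 0.207). *Lama5*, the main alpha chain under the epithelia of the late fetus, had 836 and 878 CPM in wild-type and 844 and 811 CPM in mutant lungs (log2 fold change -0.05, adjusted p = 0.80). Its genotypes overlapped, whereas those of *Lama4* did not.

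The remaining alpha chains were scarce. *Lama2*, the chain of muscle and nerve, was counted at 40.3 and 41.3 CPM in wild-type lungs and 39.9 and 36.2 CPM in mutant lungs (log2 fold change -0.10, adjusted p = 0.567). *Lama1*, the chain of early embryonic basement membranes, was at 6.46 and 5.36 CPM in wild-type and 5.10 and 5.07 CPM in mutant lungs (log2 fold change -0.22, adjusted p = 0.505). Neither passed the test, and in both genes the mutant lungs were the lower ones.

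*Lamc1*, the gamma chain of most laminins, had 713 and 664 CPM in wild-type lungs and 648 and 611 CPM in mutant lungs (log2 fold change -0.13, 95% interval -0.29 to 0.03, adjusted p = 0.398). *Lamc3*, a gamma chain of narrower distribution, had 17.5 and 12.6 CPM in wild-type lungs and 10.7 and 11.0 CPM in mutant lungs. It had the lowest log2 fold change of the members, -0.48 (95% interval -0.77 to -0.19), but its adjusted p of 0.0975 did not pass. The wild-type lungs differed from each other by 0.48 on the log2 scale, as much as the genotypes did, and without wild-type lung 1 the log2 fold change was -0.21 (adjusted p = 0.597), while without wild-type lung 2 it was -0.69 (adjusted p = 0.00199). The fits with all 4 lungs gave adjusted p between 3.93e-04 and 0.103. A gene on the opposite strand covers 382 bp of the *Lamc3* exons.

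**Figure D2:**
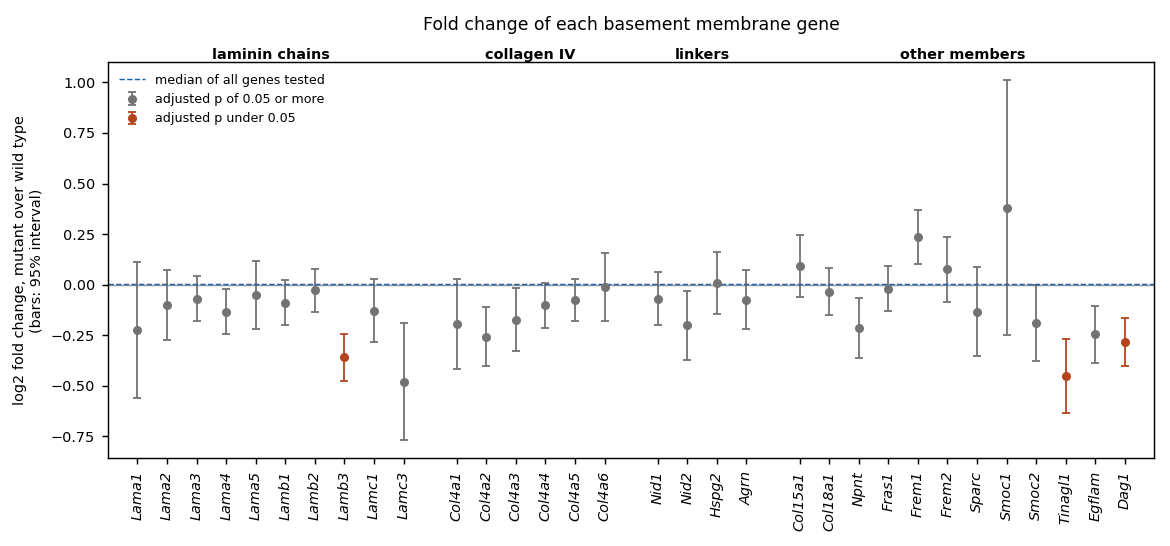
Log2 fold change (y axis, mutant over wild type) of each member with its 95% interval, from the edgeR fit over all genes, and genes grouped by role (x axis). *Lamb3*, *Tinagl1* and *Dag1*, in red, passed the adjusted p threshold, the unadjusted intervals of *Lama4*, *Lamc3*, *Col4a2*, *Col4a3*, *Nid2*, *Npnt*, *Smoc2* and *Egflam* also lie below 0 and that of *Frem1* above, and the dashed line marks the median of all genes tested, 0.002.

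Collagen IV showed small differences that did not pass the test. Of its 6 chains 0 passed in either direction, although all 6 log2 fold changes were below 0, against 49.5% of all genes. Their median was -0.14 and their range from -0.26 to -0.01. At an unadjusted p under 0.05, 2 chains were lower and 0 higher by the same edgeR test, beside 9.02% and 7.52% of all genes. *Col4a2* passed in the Wald test of DESeq2. The summed level was 2516 and 2299 CPM in wild-type lungs and 2169 and 2042 CPM in mutant lungs, which did not overlap.

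*Col4a1* and *Col4a2* encode the chains of the trimer found in nearly all basement membranes. *Col4a1* (chromosome 8, 11198423 to 11312826, minus strand) had 1378 and 1176 CPM in wild-type lungs and 1162 and 1068 CPM in mutant lungs. One wild-type lung stood above the rest, and the log2 fold change was -0.20 (95% interval -0.42 to 0.03, adjusted p = 0.363). Its partner *Col4a2* (chromosome 8, 11312805 to 11449287, plus strand) had 685 and 682 CPM in wild-type lungs and 587 and 557 CPM in mutant lungs. Here the wild-type lungs were nearly equal, and both mutant lungs were lower. The log2 fold change was -0.26 (95% interval -0.40 to -0.11), with an adjusted p of 0.0799 in edgeR, 0.00133 in the Wald test of DESeq2, and 7.33e-04 to 0.0952 over all fits with 4 lungs.

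The pair are transcribed away from each other and their first exons overlap by 22 bp. The ratio of *Col4a1* to *Col4a2* per kilobase was 1.78 and 1.53 in wild-type lungs and 1.75 and 1.70 in mutant lungs. The genotypes overlapped in this ratio, and its exact two-sided permutation p was 1.0.

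*Col4a3*, *Col4a4* and *Col4a5* encode the trimer of the alveolar and glomerular basement membranes. *Col4a3* had 78.9 and 73.7 CPM in wild-type lungs and 64.7 and 70.5 CPM in mutant lungs (log2 fold change -0.17, 95% interval -0.33 to -0.02, adjusted p = 0.246). *Col4a4* had 144 and 137 CPM in wild-type lungs and 129 and 133 CPM in mutant lungs (log2 fold change -0.10, adjusted p = 0.339). The mutant lungs were the lower ones in both genes, with gaps of a few CPM between the genotypes. A gene on the opposite strand covers 563 bp of the *Col4a3* exons, and 4.92% of the 75-base windows along its transcript also occur in that gene.

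*Col4a3* and *Col4a4* too are transcribed away from each other, from start sites 72 bp apart on chromosome 1. The 71 bases between them, chr1:82586850-82586920 of RefSeq GRCm38.p6, are shown on the minus strand, along which *Col4a4* is read, since a single short stretch separates 2 chains of the same trimer.
Col4a4 to Col4a3: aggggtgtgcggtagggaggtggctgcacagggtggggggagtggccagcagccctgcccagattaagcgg
None of the motifs searched occurs in it, and 69.0% of its bases are G or C. Per kilobase, *Col4a3* stood at 0.583 and 0.571 times the level of *Col4a4* in wild-type lungs and at 0.533 and 0.564 times in mutant lungs. The genotypes did not overlap, by a narrow margin (exact two-sided permutation p = 0.333).

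*Col4a5* and *Col4a6* lie head to head on the X chromosome with start sites 1309 bp apart, and *Col4a6* pairs with *Col4a5* in a trimer around smooth muscle and under some epithelia. *Col4a5* had 175 and 178 CPM in wild-type lungs and 171 and 165 CPM in mutant lungs (log2 fold change -0.08, adjusted p = 0.463). *Col4a6* had 54.2 and 50.8 CPM in wild-type lungs and 54.2 and 49.9 CPM in mutant lungs, an overlap of the genotypes. Its log2 fold change of -0.01 (adjusted p = 0.956) changed sign with library totals and with the GC and length correction. In each genotype 1 of the lungs had high *Xist*, and the part of this in the values of the X-linked chains was not tested.

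The 4 linkers differed least between genotypes of the 3 subgroups by median, -0.07, with a range from -0.20 to 0.01. None passed the edgeR test in either direction, and the Wald test of DESeq2 called 0. At an unadjusted p under 0.05, 1 linker was lower, beside 9.02% of all genes. Their summed level was 1652 and 1571 CPM in wild-type lungs and 1573 and 1504 CPM in mutant lungs, which overlapped.

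*Nid1*, the more abundant nidogen, had 533 and 510 CPM in wild-type lungs and 509 and 485 CPM in mutant lungs (log2 fold change -0.07, adjusted p = 0.603). *Nid2* had 129 and 106 CPM in wild-type lungs and 105 and 98.7 CPM in mutant lungs, with wild-type lung 1 well above the other 3. Its log2 fold change was -0.20 (95% interval -0.37 to -0.03, adjusted p = 0.223), and -0.06 without that lung. *Rtraf*, on the opposite strand, overlaps 437 bp of the *Nid2* exons and shares 7.56% of the 75-base windows of its transcript, which leaves this count uncertain.

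*Agrn*, a proteoglycan that binds laminin and dystroglycan, had 688 and 680 CPM in wild-type lungs and 647 and 653 CPM in mutant lungs (log2 fold change -0.07, 95% interval -0.22 to 0.07, adjusted p = 0.625). *Hspg2*, which encodes perlecan, had 302 and 275 CPM in wild-type lungs and 312 and 268 CPM in mutant lungs. The mutant lungs of *Hspg2* enclosed the wild-type lungs, and its log2 fold change of 0.01 (adjusted p = 0.972) turned below 0 with the GC and length correction.

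Set side by side, the ranges of the 3 subgroups overlapped, and no difference between subgroups was tested. The order of their medians depended on single lungs. With all 4 lungs collagen IV was lowest (-0.14), then laminins (-0.12), then linkers (-0.07), but without mutant lung 1 the laminin median was -0.17 and that of collagen IV -0.11. Without wild-type lung 1, the collagen IV median was -0.08 and the laminin median -0.09.

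Among the other 12 members, *Tinagl1* and *Dag1* fell and 10 did not pass, with a median log2 fold change of -0.08. *Tinagl1* (ENSMUSG00000028776, chromosome 4, 130164454 to 130175122, minus strand) encodes a secreted glycoprotein of basement membranes related to tubulointerstitial nephritis antigen. It was counted at 158 and 148 CPM in wild-type lungs and at 99.6 and 124 CPM in mutant lungs. Both mutant lungs were lower, and mutant lung 1 was the lowest. The log2 fold change was -0.45 (standard error 0.08, 95% interval -0.63 to -0.27, edgeR adjusted p = 0.0207), and *Tinagl1* fell by 26.9%. The Wald test of DESeq2 gave an adjusted p of 0.0995, above the threshold, and the other alternatives gave values between 3.42e-11 and 0.0243. Without mutant lung 1 the log2 fold change was -0.30 (edgeR adjusted p = 0.00234).

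*Dag1* (ENSMUSG00000039952, chromosome 9, 108204634 to 108263958, minus strand) encodes dystroglycan, a membrane receptor that binds laminin, agrin and perlecan through its sugar chains. It had 499 and 473 CPM in wild-type lungs and 394 and 404 CPM in mutant lungs, with no overlap and a gap between genotypes wider than that within either. The log2 fold change was -0.29 (standard error 0.05, 95% interval -0.40 to -0.17, edgeR adjusted p = 0.0247), so *Dag1* fell to 0.82 of its wild-type level. Without wild-type lung 1 its adjusted p was 0.162, and without wild-type lung 2 it was 0.0745, whereas the fits with all 4 lungs gave 9.13e-06 to 0.031. No exon of *Lamb3*, *Tinagl1* or *Dag1* overlaps an antisense gene, and 0 of the 75-base windows along their transcripts occur in another gene.

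*Egflam*, which encodes pikachurin, a matrix ligand of dystroglycan, had 89.3 and 91.3 CPM in wild-type lungs and 73.0 and 79.1 CPM in mutant lungs. Both mutant lungs were lower, but the log2 fold change of -0.25 (95% interval -0.39 to -0.11, adjusted p = 0.0807) did not pass. Its exons share 198 bp with those of an antisense gene, which makes its count uncertain.

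*Npnt*, the gene of nephronectin, an integrin ligand of epithelial basement membranes, had 605 and 582 CPM in wild-type lungs and 487 and 537 CPM in mutant lungs. The genotypes did not overlap, and the log2 fold change was -0.21 (95% interval -0.36 to -0.07, edgeR adjusted p = 0.14). It passed in DESeq2's Wald test (adjusted p = 0.0373) and with no filter on low counts (adjusted p = 0.00711), within a span of 0.00711 to 0.157 over the fits with all 4 lungs. FRAS1, FREM1 and FREM2 form a complex under embryonic epithelia, and none of their genes passed the edgeR test. *Frem1* had 423 and 386 CPM in wild-type lungs and 493 and 459 CPM in mutant lungs, and it was the only member for which both mutant lungs were higher. Its log2 fold change was 0.23 (95% interval 0.10 to 0.37), with an adjusted p of 0.0833 in edgeR, 0.0229 in the Wald test of DESeq2, and 3.93e-04 to 0.108 over all fits with 4 lungs.

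*Fras1* had 152 and 146 CPM in wild-type lungs and 151 and 143 CPM in mutant lungs (log2 fold change -0.02, adjusted p = 0.886). *Frem2* had 110 and 114 CPM in wild-type lungs and 128 and 108 CPM in mutant lungs (log2 fold change 0.07, adjusted p = 0.664). The genotypes overlapped in both genes. Per kilobase, *Frem1* stood at 3.52 and 3.35 times the level of *Fras1* in wild-type lungs and at 4.15 and 4.06 times in mutant lungs, without overlap (exact two-sided permutation p = 0.333).

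The multiplexins *Col15a1* and *Col18a1*, collagens that carry heparan or chondroitin sulfate chains, overlapped between genotypes. *Col15a1* had 112 and 112 CPM in wild-type lungs and 129 and 109 CPM in mutant lungs (log2 fold change 0.09, adjusted p = 0.564). *Col18a1* had 352 and 364 CPM in wild-type lungs and 361 and 337 CPM in mutant lungs (log2 fold change -0.03, adjusted p = 0.798). In both genes mutant lung 1 exceeded mutant lung 2.

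*Sparc*, a secreted calcium-binding glycoprotein that binds collagen IV, had 1666 and 1668 CPM in wild-type lungs and 1440 and 1596 CPM in mutant lungs. The mutant lungs were lower but far apart, and the log2 fold change of -0.13 (95% interval -0.35 to 0.09, adjusted p = 0.546) did not pass. Its relative *Smoc2* had 21.3 and 21.3 CPM in wild-type lungs and 17.2 and 19.9 CPM in mutant lungs (log2 fold change -0.19, adjusted p = 0.291). *Smoc1*, the least counted member, had 1.27 and 1.996 CPM in wild-type lungs and 2.44 and 1.77 CPM in mutant lungs. These overlapped, and its log2 fold change of 0.38 had a 95% interval from -0.25 to 1.01 (adjusted p = 0.552), which covers differences in either direction.

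**Figure D3:**
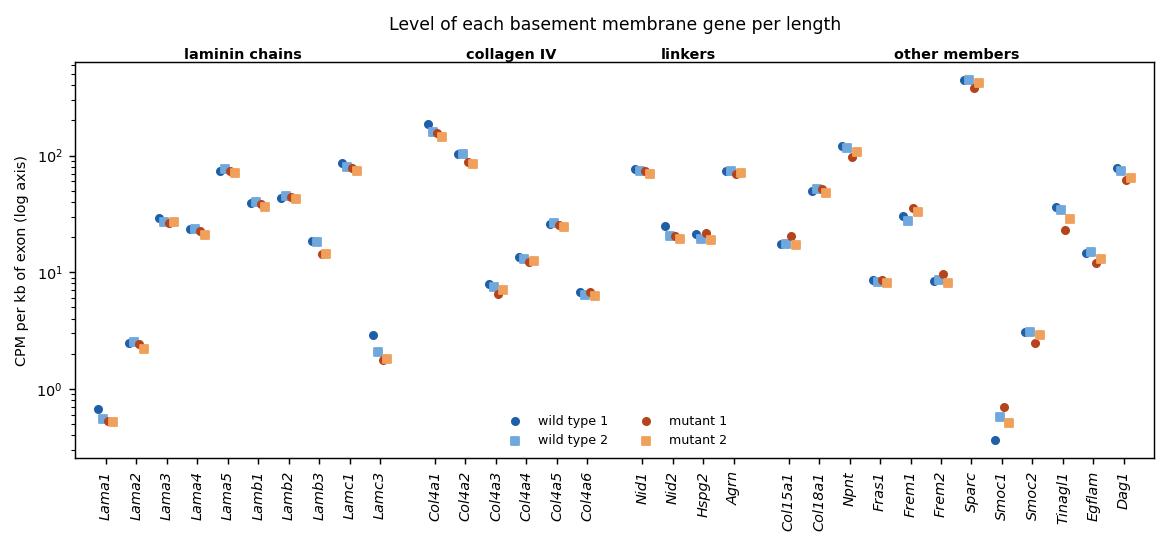
Level of each member in each lung, in CPM per kilobase of exon (y axis, log scale), with genes grouped by role (x axis). *Sparc* lies highest at 380 to 440 and *Col4a1* next at 143 to 185, while *Lama1* and *Smoc1* lie below 1 in every lung.

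Levels per kilobase ordered the members as follows. *Sparc* was highest, at a mean over the 4 lungs of 420 CPM per kilobase, followed by *Col4a1* at 160, *Npnt* at 110, *Col4a2* at 94.9 and *Lamc1* at 79.7. The ranges over lungs of *Npnt* and *Col4a2* overlapped, while that of *Col4a1* (143 to 185) lay clear of both. *Lama5*, *Nid1*, *Agrn* and *Dag1* came next, between 69.6 and 74.0, and their ranges overlapped one another. *Lama5* made up 56.8% to 58.9% of the summed alpha chain level in every lung, and *Lama3* was the next alpha chain at 20.7% to 22.5%. Among beta chains *Lamb2* stood at 43.7 and *Lamb1* at 38.4, with *Lamb3* at 16.3, and these 3 ranges did not overlap. These ranks rest on pooled annotated exons, 9917 bp for *Lamb1* and 6082 bp for *Lamb2*, whose longest transcripts have 5784 and 5629 bases. For *Lama4* and *Lama3* the pooled exons have 12068 and 10745 bp, against 6046 and 10548 bases. With the longest transcript as the length, both orders would be reversed. *Lamb1* would then stand above *Lamb2*, and *Lama4* above *Lama3*. The ranks of these chains therefore hold only for pooled exons, and which length fits the reads was not tested. *Lamc3* (2.12), *Lama2* (2.41), *Smoc2* (2.87), *Lama1* (0.568) and *Smoc1* (0.535) were the lowest, and the ranges of the last pair overlapped.

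Several of the cell type marker lists held genes called lower in mutant lungs, where 1.34% of all genes tested were called lower. Of 6 pan-epithelial markers 3 fell, and their summed level was 1515 to 1528 CPM in wild-type and 1327 to 1366 CPM in mutant lungs. Of 9 alveolar type 1 markers 8 fell (3085 to 3229 against 2135 to 2497 CPM), and of 8 alveolar type 2 markers 6 fell (8570 to 9010 against 6026 to 7140 CPM). Of 8 endothelial markers 1 fell (1691 to 1735 against 1537 to 1585 CPM), and of 5 mesothelial markers 2 fell (603 to 626 against 446 to 525 CPM). Fibroblast, smooth muscle and pericyte markers, 18 in all, had 0 that passed in either direction. Of 6 tested cardiac markers 5 fell (235 to 294 against 172 to 187 CPM), as did 0 of 4 tested leukocyte and 1 of 6 erythroid markers. No gene of these lists was at 0 in all lungs. The part of these shifts in the results for the basement membrane genes was not tested.

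Relative to the summed alveolar type 1 markers, *Lamb3* stood at 3.80 and 3.85 CPM per 100 CPM of markers in wild-type lungs and at 4.40 and 3.77 in mutant lungs, which overlapped. *Tinagl1* overlapped on this scale as well, at 4.89 and 4.81 in wild-type lungs and 4.66 and 4.97 in mutant lungs. *Dag1* did not overlap and was the higher in mutant lungs, at 15.5 and 15.3 against 18.4 and 16.2. The same direction without overlap was found for *Lama3*, *Npnt*, *Egflam* and *Col4a2*, members that were not called. Relative to the pan-epithelial markers, in contrast, all 3 genes were lower in both mutant lungs. *Lamb3* was at 8.10 and 7.78 per 100 CPM of those markers in wild-type lungs and at 7.08 and 6.90 in mutant lungs. *Egflam* and *Col4a2* were lower there too, *Lama3* was higher and *Npnt* overlapped. Relative to the endothelial markers, the 3 genes and *Col4a2* were lower, *Lama3* was higher, and *Npnt* and *Egflam* overlapped. Each ratio without overlap had an exact two-sided permutation p of 0.333, and 0.519 after Benjamini-Hochberg adjustment. The summed alveolar type 1 markers were themselves lower in mutant lungs (3085 to 3229 against 2135 to 2497 CPM). A gene that fell less than that sum stands higher on its scale. The summed alveolar type 2 markers were lower too (8570 to 9010 against 6026 to 7140 CPM), and ratios to them were not computed.

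**Figure D4:**
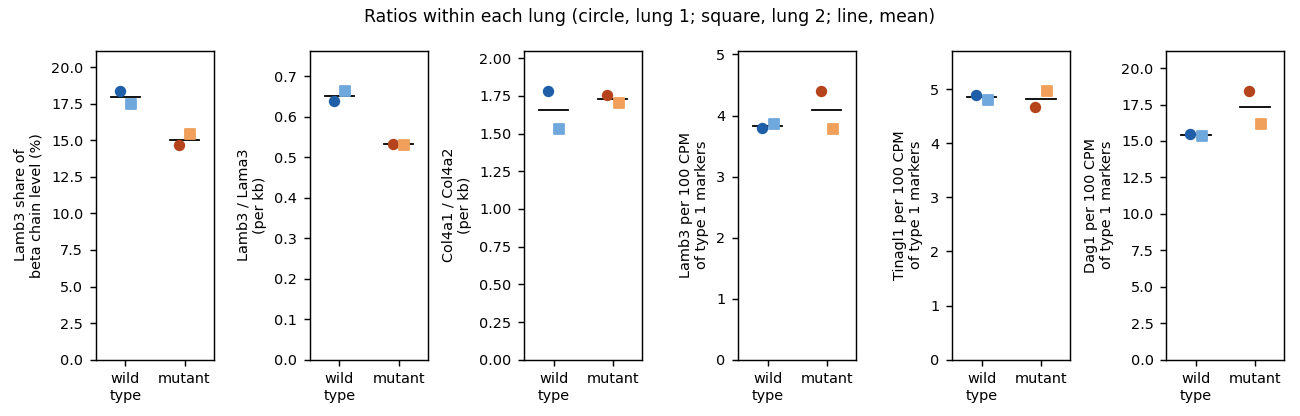
Ratios within each lung (y axes, each with its own unit) for wild-type and mutant lungs (x axis), with circles for lung 1, squares for lung 2 and lines for the mean of 2 lungs. The share of *Lamb3* among beta chains and its ratio to *Lama3* are lower in both mutant lungs. *Lamb3* and *Tinagl1* per 100 CPM of alveolar type 1 markers, whose sum is lower in mutant lungs, overlap between genotypes.

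Genes that act on or with the basement membrane were examined as 4 further lists of 54 genes, of which 0 passed the edgeR test in either direction. At an unadjusted p under 0.05, 6 of the 54 were lower and 2 higher, beside 9.02% lower and 7.52% higher over all genes tested, and these counts were read no further. The 14 receptors (integrin chains, discoidin domain receptors, *Bcam* and sarcoglycans) had a median log2 fold change of -0.08, with 5 lower and 2 higher at an unadjusted p under 0.05. *Ddr1*, a collagen receptor of epithelia, had 106 and 110 CPM in wild-type lungs and 92.9 and 86.2 CPM in mutant lungs (log2 fold change -0.26, adjusted p = 0.0503), just above the threshold, and part of its exons lies opposite an antisense gene. *Itga3*, the alpha chain of a laminin-binding integrin, had 131 and 117 CPM in wild-type lungs and 102 and 103 CPM in mutant lungs (log2 fold change -0.27, adjusted p = 0.0505). Both were lower in both mutant lungs. *Ddr2*, the related collagen receptor of mesenchymal cells, had 141 and 144 CPM in wild-type lungs and 167 and 159 CPM in mutant lungs (log2 fold change 0.19, adjusted p = 0.0849), and its exons too lie partly opposite an antisense gene. *Itga1*, a chain of a collagen-binding integrin, had 124 and 110 CPM in wild-type lungs and 136 and 127 CPM in mutant lungs (log2 fold change 0.17, adjusted p = 0.216). Both were higher in both mutant lungs. The remaining receptors lower at an unadjusted p under 0.05 were *Bcam* (log2 fold change -0.26, edgeR adjusted p = 0.0619), *Itga7* (-0.28, adjusted p = 0.155) and *Itga6* (-0.12, adjusted p = 0.289). All these receptors were named after their values were seen, and none passed.

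The 14 genes of collagen IV processing and crosslinking had a median of -0.06, the 13 minor basement membrane components a median of -0.01, and the 13 genes that attach the laminin-binding sugars to dystroglycan a median of -0.02. Beside *Dag1*, which fell, none of those glycosylation genes was lower or higher at an unadjusted p under 0.05.

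**Figure D5:**
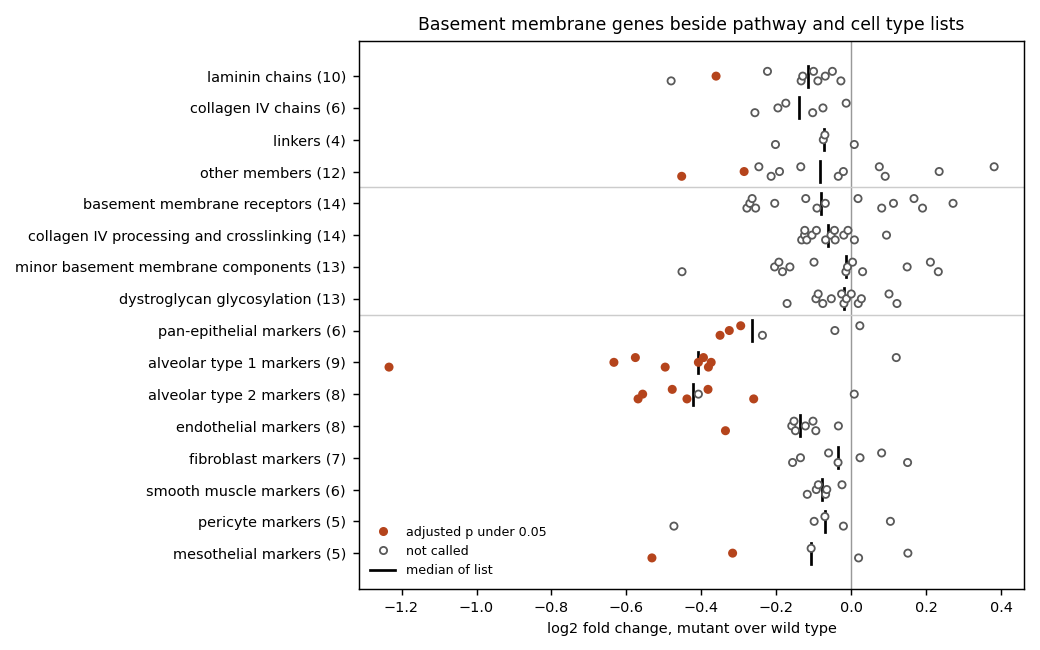
Log2 fold change of every tested gene (x axis) in the 4 member subgroups, the 4 pathway lists and 8 cell type marker lists (y axis, number of genes in brackets), with called genes in red and a bar at each median. The alveolar type 1 and type 2 markers have medians of -0.41 and -0.42, the cardiac (median -0.58), leukocyte and erythroid lists are not drawn, and no gene of the 4 pathway lists is red.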

How the data were processed

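The authors made stranded mRNA libraries and read 75 bases from one end. After trimming with Reaper they used STAR 2.4.0a for alignment to GRCm38 and counted reads per gene with featureCounts 1.5.1, dropping reads that hit several genes or places. The deposited values are these raw counts, with no normalization. Whether strand was used in counting is not given in the sources used here.

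Counts were compared between 2 mutant and 2 wild-type lungs with edgeR 4.0.16 in R 4.3.3 (TMM, glmQLFit with robust = FALSE, glmQLFTest, Benjamini-Hochberg) over 18763 genes averaging 5 or more counts, at an adjusted p under 0.05. The p-values rest on the spread between separate animals. With 2 lungs per genotype, edgeR estimates this spread for each gene partly from that of all genes. CPM was divided by the union exon length of GENCODE M21 for levels per kilobase. Scripts were tested on simulated data. Of 77 genes changed there by a log2 fold of 0.3 in either direction, 15 were called with the right sign, and 39 of 56 changed by 1. A gene that did not pass may therefore still differ. Lungs of one genotype differed beyond sampling noise, with chi-square over degrees of freedom of 7.47 (wild type) and 12.6 (mutant). These values include genes of the sex chromosomes, and the lungs of each genotype were unlike in *Xist*. Each lung counted as a replicate.

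All 32 members were named, of other lists only genes that were called or are named as exceptions. The members and all lists were chosen with earlier results of these data known. The alternatives were other size factors, filters and tests (DESeq2 1.42.0 among them), a replicate block, a GC content and exon length offset (loess span 0.3), omitted sex and mitochondrial chromosomes, and each lung left out.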

Additional observations from a re-analysis of the deposited data

How the results depend on the processing

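The number of genes called was 308 (252 lower and 56 higher), and 3 members were called. Scaling by library totals gave 346 genes, of which 234 were lower and 112 higher, and moved the median of all genes from 0.002 to 0.02. Testing every counted gene called 1162 genes and 10 members, and robust = TRUE called 474 genes. The Wald test of DESeq2 called 5 members, a count given without its share over all genes and therefore read no further. With the replicate block 710 genes and 5 members were called, and with the block and the GC content and exon length offset 867 genes and 7 members. The labels give the lungs numbers but no pairs. The deviations of same-numbered lungs had a correlation across genes of -0.197. It was -0.027 without chromosomes X, Y and MT, and -0.741 over the 10979 genes averaging at least 250 counts. The block is therefore given only as an alternative. Blocked fits did enter the ranges of adjusted p given above for single members over the fits with all 4 lungs. The block added *Egflam* (adjusted p = 0.047) and *Frem1* (adjusted p = 0.0189) to the called members and lost none. Same-numbered lungs of the genotypes were unlike in *Xist*. Crossing the numbers pairs the lungs that were alike in *Xist*, wild-type lung 1 with mutant lung 2 and wild-type lung 2 with mutant lung 1. With this crossed block, an alternative added after seeing the data, 415 genes and 4 members were called.

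With each lung left out in turn, and the lone lung assumed to vary like the others, between 206 and 1643 genes and between 1 and 10 members were called. Members called were fewest without wild-type lung 1 and most without mutant lung 2, without the share over all genes beside them, and were read no further. The laminin median ranged from -0.17 to -0.076 and that of collagen IV from -0.18 to -0.082. The cause of these shifts was not tested.

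Signs turned only for members close to 0. *Col4a6* was at 0.0066 with library totals, 0.0074 with the GC content and exon length offset and 0.0082 with the block and offset. *Lamb2* was at 0.0043 and 0.0042 and *Hspg2* at -0.0051 and -0.0050 in the last pair of fits. With a lung left out, *Col4a6* ranged from -0.072 to 0.048, *Lamb2* from -0.065 to 0.013, *Hspg2* from -0.10 to 0.12, *Fras1* from -0.055 to 0.016, *Frem2* from -0.054 to 0.20, *Col15a1* from -0.029 to 0.21 and *Col18a1* from -0.083 to 0.016. Beside the main fit, *Lamb3* and *Dag1* were called in each of the 11 alternative fits with all 4 lungs, and *Tinagl1* in 10 of them. The cause of these sign changes was not tested.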
